A study of Carica papaya with 12 samples.

Results

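Of 75259 Trinity genes assembled from papaya (Carica papaya) fruit flesh, 367 had a log2 change above 1 between ripe and unripe fruit in each of the varieties ‘1B’ and ‘RB1’, and the 200 with the largest smaller change, chosen by these measured values, are described here. A Trinity gene is a group of assembled transcripts (isoforms) that share an identifier up to the isoform suffix, and the 200 genes held 987 of the 180368 transcripts. The values that chose them were TPM (an abundance per transcript length, relative to the total of the library) that had been scaled between libraries by TMM (trimmed mean of M values) and summed per gene. The change is log2 of the ripe group mean plus 1 minus log2 of the unripe group mean plus 1, and the smaller change is that of the variety in which it was smaller. Because the added 1 understates the change of genes with low levels, the ranking favours well expressed genes. Both ripening contrasts in 11 of the 12 libraries were used in the choice, and every ripe to unripe difference of the 200 genes below is a description without a test.

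The study set the yellow-fleshed variety ‘1B’ (labelled bitter flavour and musty aroma) beside the red-fleshed variety ‘RB1’ (labelled sweet flavour and floral aroma) at a ripe and an unripe stage. The groups were ripe ‘1B’, unripe ‘1B’, ripe ‘RB1’ and unripe ‘RB1’, with flesh of 3 fruits each as biological replicates from a single plantation and harvest month. On the study's ripening index, harvest was at the mature green stage (unripe) and at a partly coloured stage (ripe), which is short of fully ripe. All fruits had received a prochloraz fungicide after harvest and had been held for a day before refrigerated transport, so no group lacked these treatments. Each variety is a single cultivar and each fruit was sampled once, so the p-values measure the spread between these fruits. Ripe ‘RB1’ replicate 3 lay near the unripe fruits in the study's own comparison of samples and was left out of its tests and of the choice of genes. It is reported separately. The library totals were 45519006 to 60100478 estimated counts except in ripe ‘RB1’ replicate 2 (10949263) and unripe ‘RB1’ replicate 1 (19359105). The study's RNA quality report scored every unripe ‘1B’ fruit above every ripe ‘1B’ fruit and every unripe ‘RB1’ fruit. RNA quality therefore cannot be told apart from stage in ‘1B’, nor from variety in unripe fruit. The tissue label could not be checked against marker genes, because the only names that could be paired with the assembled transcripts were those of a list of sugar and volatile pathway genes. The study drew that list from transcripts it had called different between the varieties in ripe fruit of this same series. In flesh, fewer cells of a type and less RNA per cell cannot be told apart.

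Papaya is a climacteric fruit, in which ethylene production and respiration surge as ripening starts. During ripening the cell walls are loosened by hydrolases, carotenoid pigments accumulate in the flesh and sugars and aroma volatiles change. Isoprenoids, which include carotenoids and the terpenes of papaya aroma, are built from acetyl-CoA by the mevalonate route in the cytosol and from pyruvate and glyceraldehyde phosphate by a separate route in the plastid. Beta-glucosidases can release aroma compounds that fruit cells store bound to sugar. Only 4 of the 200 genes carried a name from the pathway list, so the others are given by their identifiers and no role is assigned to them.

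As a share of all TMM-scaled TPM in a library, the 200 genes summed to 1.35%, 1.46% and 1.53% in ripe ‘1B’ fruits, against 0.091%, 0.084% and 0.083% in unripe ‘1B’ fruits. They summed to 1.05% and 1.00% in ripe ‘RB1’ replicates 1 and 2, against 0.18%, 0.17% and 0.16% in unripe ‘RB1’ fruits. The choice of genes fixes that the ripe shares lie above the unripe shares. The set-aside ripe ‘RB1’ replicate 3 held 0.24%, just above the unripe fruits of its variety. The ripe ‘1B’ sum rested on a pair of genes: TRINITY_DN6927_c1_g1 supplied 30.8% to 37.2% of it and TRINITY_DN5999_c3_g1 16.0% to 19.6%. Without this pair, chosen after its values were seen, the remaining genes summed to 0.71%, 0.76% and 0.66% in ripe ‘1B’, against 1.04% and 0.98% in ripe ‘RB1’, so the order of the varieties turned. The removal was one-sided, because TRINITY_DN111_c0_g2, which led the ripe ‘RB1’ sum with 13.2% and 13.6% of it, was kept. The turned order therefore depends on which genes were removed. The libraries also differed in what they sum to after scaling, with 735737 to 821461 TMM-scaled TPM in ripe ‘1B’, 1188984 to 1357936 in unripe ‘1B’, 827505 and 830300 in the ripe ‘RB1’ fruits used and 1016884 to 1229239 in unripe ‘RB1’. When every library was instead rescaled to the same sum, a scale added after the data were seen, 176 of the 200 genes stayed among the first 200.

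**Figure D1:**
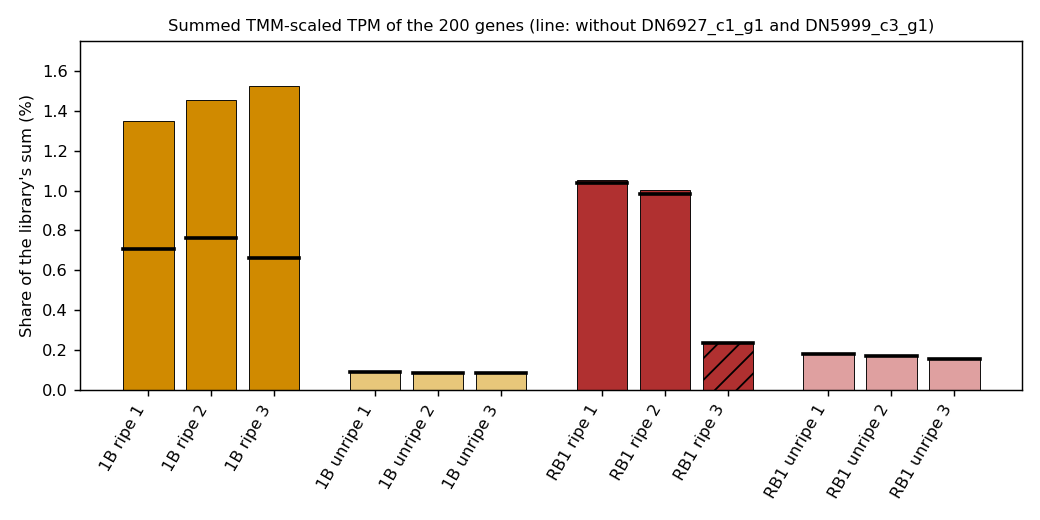
Share of each library's summed TMM-scaled TPM (vertical axis, percent) held by the 200 genes, 1 bar per fruit, with ripe ‘RB1’ replicate 3 hatched and a black line for the share without TRINITY_DN6927_c1_g1 and TRINITY_DN5999_c3_g1. The 3 ripe ‘1B’ bars stand at 1.35% to 1.53% with the pair and at 0.66% to 0.76% without it, and the hatched bar stands at 0.24%.

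The log2 change ran between 1.25 and 9.23 in ‘1B’ (median 1.80) and between 1.25 and 5.60 in ‘RB1’ (median 1.85). The smaller of the 2 changes was that in ‘1B’ for 107 genes and that in ‘RB1’ for 93. For 129 genes the changes in the varieties differed by less than 1 on the log2 scale. Both changes exceeded 2 in 37 genes and exceeded 3 in 6. In 4 genes the ‘1B’ change was larger by over 3, and in 3 genes the ‘RB1’ change was. Levels covered a wide range. The median gene had 10.8 TMM-scaled TPM in ripe ‘1B’, against 1.19 in unripe ‘1B’, and 12.9 in ripe ‘RB1’, against 1.41 in unripe ‘RB1’. The mean lay under 1 in unripe ‘1B’ for 92 genes, in unripe ‘RB1’ for 82 and in both for 64. A mean of at least 100 was reached by 14 genes in ripe ‘1B’, by 15 in ripe ‘RB1’ and by 9 in both. The last genes taken, TRINITY_DN11347_c1_g4, TRINITY_DN7195_c0_g1 and TRINITY_DN1017_c0_g1, had smaller changes of 1.25 each. The first genes left out, TRINITY_DN1723_c0_g1, TRINITY_DN21_c0_g2 and TRINITY_DN2794_c0_g1, had 1.25, 1.24 and 1.24, so the limit falls within a run of near-equal values. Other choices of scale moved the membership more than the omission of any fruit did. With 0.1 added in place of 1, only 94 of the 200 stayed among the first 200 while 2995 genes passed the limit, and with CPM (counts relative to the library total) of the summed counts 129 stayed. Leaving out each fruit in turn kept 186 to 197.

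**Figure D2:**
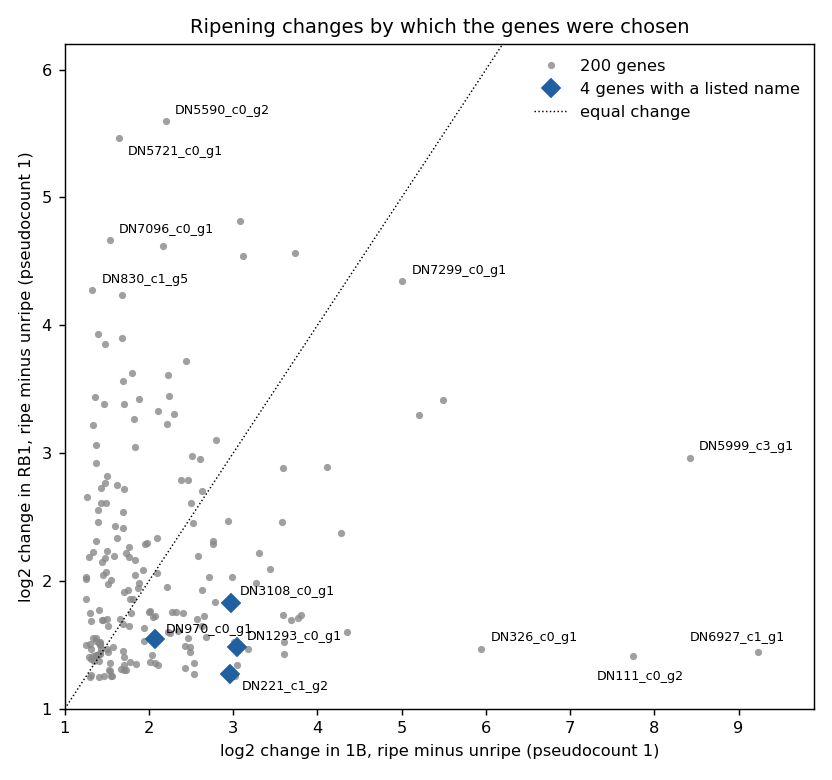
Log2 change between ripe and unripe fruit in ‘1B’ (horizontal axis) and in ‘RB1’ (vertical axis) for the 200 genes, with the 4 that carry a listed name as diamonds and a dotted line where both changes are equal. The points are the values by which the genes were chosen. TRINITY_DN6927_c1_g1 lies farthest to the right, with 9.23 in ‘1B’ and 1.44 in ‘RB1’, and TRINITY_DN5590_c0_g2 highest, with 2.20 in ‘1B’ and 5.60 in ‘RB1’.

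TRINITY_DN7299_c0_g1, first in rank, had 178, 157 and 117 TMM-scaled TPM in ripe ‘1B’, against 2.92, 3.26 and 4.96 in unripe ‘1B’. Its levels in ‘RB1’ were 32.0 and 31.3 in the ripe fruits used, against 0.525, 0.721 and 0.571 in unripe fruits. Every ripe fruit used stood far above every unripe fruit of its own variety, and ripe ‘1B’ stood above ripe ‘RB1’. TRINITY_DN8912_c0_g1 had 24.0, 22.6 and 34.0 in ripe ‘1B’, against 1.04, 0.905 and 1.31 in unripe ‘1B’. In ‘RB1’ this gene had 48.3 and 48.5 in ripe fruits, against 0.957, 1.1 and 1.2 in unripe fruits, so here the ripe ‘RB1’ fruits were the higher ones while the unripe fruits of both varieties stood close together. TRINITY_DN6511_c0_g1 reached 59.5, 55.4 and 28.8 in ripe ‘1B’, against 0.063, 0.058 and 0.144 in unripe ‘1B’. It had 28.2 and 30.5 in ripe ‘RB1’, against 1.66, 1.86 and 2.02 in unripe ‘RB1’. The ripe levels of the varieties overlapped in this gene, and the unripe ‘1B’ fruits were the lowest of all. TRINITY_DN13695_c0_g1 had 42.1, 39.3 and 29.5 in ripe ‘1B’, against 0, 0.046 and 0.031 in unripe ‘1B’, where it was counted 7 times over the 3 libraries. In ‘RB1’ it had 15.6 and 16.5 in ripe fruits, against 0.432, 0.809 and 0.956 in unripe fruits.

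TRINITY_DN2489_c0_g1 and TRINITY_DN3281_c0_g1, at ranks 5 and 6, shared a pattern in which ripe ‘RB1’ exceeded ripe ‘1B’. The levels of TRINITY_DN2489_c0_g1 were 14.1, 15.7 and 9.08 in ripe ‘1B’, against 0.767, 0.418 and 0.618 in unripe ‘1B’, and 31.3 and 29.6 in ripe ‘RB1’, against 0.257, 0.455 and 0.352 in unripe ‘RB1’. Those of TRINITY_DN3281_c0_g1 were 14.9, 14.6 and 12.5 in ripe ‘1B’, against 1.03, 0.676 and 0.605 in unripe ‘1B’, and 68.8 and 65.9 in ripe ‘RB1’, against 1.69, 1.31 and 1.3 in unripe ‘RB1’. The 3 genes that complete the first 10 beside TRINITY_DN5999_c3_g1 had smaller changes of 2.80 to 2.89. TRINITY_DN171_c1_g1 had 24.4, 25.6 and 17.4 in ripe ‘1B’, against 0.379, 0.444 and 0.257 in unripe ‘1B’, and 11.6 and 13.5 in ripe ‘RB1’, against 0.593, 1 and 0.893 in unripe ‘RB1’. TRINITY_DN3760_c0_g1 had 36.3, 36.9 and 16.3 in ripe ‘1B’, against 1.43, 1.76 and 1.48 in unripe ‘1B’, and 71.2 and 78.0 in ripe ‘RB1’, against 8.16, 9.09 and 10.5 in unripe ‘RB1’. Replicate 3 of ripe ‘1B’ had less than the other ripe ‘1B’ fruits. TRINITY_DN6960_c0_g1 was nearly level between the varieties at the ripe stage, with 13.1, 13.0 and 10.9 in ripe ‘1B’, against 1.05, 0.733 and 0.959 in unripe ‘1B’, and 12.2 and 13.9 in ripe ‘RB1’, against 0.724, 0.574 and 0.624 in unripe ‘RB1’.

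**Figure D3:**
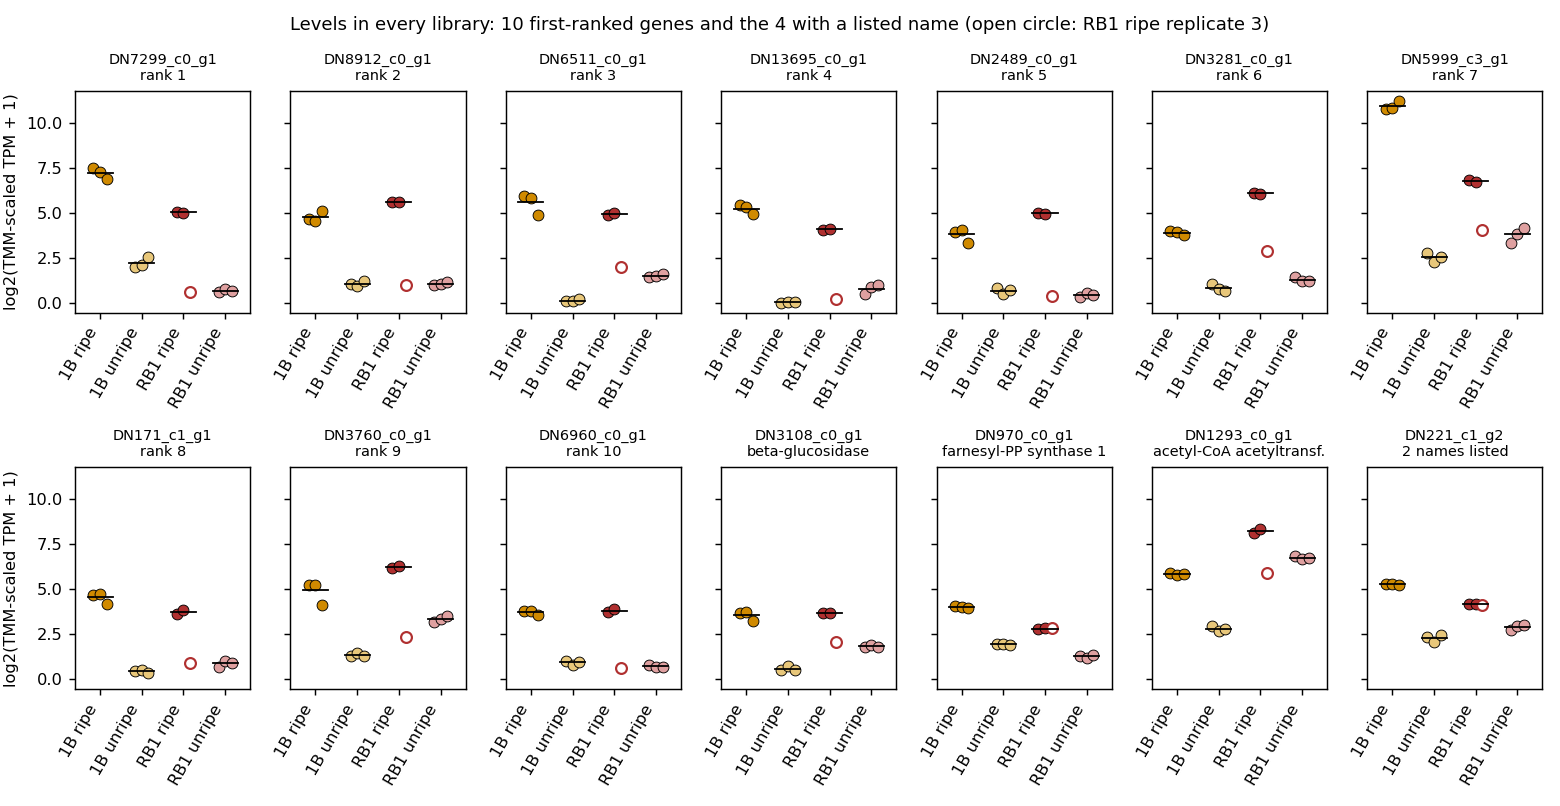
Log2 of TMM-scaled TPM plus 1 (vertical axis) in every fruit for the 10 genes first in rank and the 4 genes with a listed name, by group along the horizontal axis, with the group mean as a line and ripe ‘RB1’ replicate 3 as an open circle outside the mean. The open circle lies at or near the unripe ‘RB1’ level in most panels and at the ripe ‘RB1’ level in TRINITY_DN970_c0_g1 (6.25 TMM-scaled TPM) and TRINITY_DN221_c1_g2 (16.7 TMM-scaled TPM).

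Among the 5 genes with the highest mean over the ripe groups, the first 2 had far higher levels in ripe ‘1B’ than in ripe ‘RB1’. TRINITY_DN6927_c1_g1 had 3518, 3296 and 4572.5 TMM-scaled TPM in ripe ‘1B’, against 5.17, 4.68 and 6.14 in unripe ‘1B’. In ‘RB1’ it had 37.0 and 34.8 in ripe fruits, against 10.9, 10.5 and 16.4 in unripe fruits, so a gene that was lower in ‘1B’ when unripe stood far higher in ‘1B’ when ripe. TRINITY_DN5999_c3_g1 had 1780.1, 1813 and 2409.9 in ripe ‘1B’, against 5.75, 3.87 and 4.89 in unripe ‘1B’, and 112 and 105 in ripe ‘RB1’, against 9.17, 13.2 and 16.7 in unripe ‘RB1’. TRINITY_DN111_c0_g2 was likewise lower in unripe ‘1B’ than in unripe ‘RB1’, but it stayed lower in ripe ‘1B’. It had 278, 272 and 293 in ripe ‘1B’, against 0.461, 0.16 and 0.325 in unripe ‘1B’. In ‘RB1’ it had 1152 and 1131 in ripe fruits, against 436, 418 and 432 in unripe fruits, where it was the most abundant of the 200 genes. TRINITY_DN605_c0_g3 and TRINITY_DN4090_c1_g1 were abundant in every group. TRINITY_DN605_c0_g3 had 412, 369.7 and 713 in ripe ‘1B’, against 236, 137 and 219 in unripe ‘1B’, and 528 and 391 in ripe ‘RB1’, against 86.0, 94.9 and 111 in unripe ‘RB1’. TRINITY_DN4090_c1_g1 had 494, 473 and 323 in ripe ‘1B’, against 111, 99.1 and 108 in unripe ‘1B’, and 503 and 497 in ripe ‘RB1’, against 147, 145 and 149 in unripe ‘RB1’.

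At the other end, TRINITY_DN5065_c1_g1, chosen after its values were seen, was the one gene with no count in any of the 6 unripe libraries. It had 2.38, 2.33 and 1.87 TMM-scaled TPM in ripe ‘1B’ and 14.0 and 13.9 in ripe ‘RB1’, and no count in ripe ‘RB1’ replicate 3. Set against 3 counts over the unripe libraries of a variety, the CPM in ripe fruit was at least 233-fold higher in ‘1B’ and at least 1536-fold higher in ‘RB1’. The bound rests on counting error alone, and sequenced reads are not independent molecules.

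The 4 genes with a listed name came from the terpenoid backbone, starch and sucrose, and glycolysis pathways. TRINITY_DN970_c0_g1, a farnesyl pyrophosphate synthase, joins isoprenoid units into the precursor of sesquiterpenes and sterols. It had 15.7, 15.3 and 14.3 TMM-scaled TPM in ripe ‘1B’, against 2.81, 2.9 and 2.74 in unripe ‘1B’, and 6.01 and 6.07 in ripe ‘RB1’, against 1.48, 1.24 and 1.49 in unripe ‘RB1’. The ripe ‘1B’ fruits were the highest and the unripe ‘RB1’ fruits the lowest. An isoform without a listed name, TRINITY_DN970_c0_g1_i6, led in all 4 groups with 63.4% to 72.2% of the gene, and the listed isoform TRINITY_DN970_c0_g1_i2 averaged 1.71 in ripe ‘1B’, against 0.51 in unripe ‘1B’, and was at 0 in the ripe ‘RB1’ fruits used and in unripe ‘RB1’. TRINITY_DN1293_c0_g1, a cytosolic acetyl-CoA acetyltransferase, catalyses the first step of the mevalonate route. Its levels were 59.5, 55.1 and 56.1 in ripe ‘1B’, against 6.63, 5.41 and 5.91 in unripe ‘1B’. In ‘RB1’ they were 279 and 322 in ripe fruits, against 115, 100.5 and 106 in unripe fruits, so even unripe ‘RB1’ exceeded ripe ‘1B’. The listed isoform TRINITY_DN1293_c0_g1_i9 averaged 9.99 in ripe ‘1B’, against 1.23 in unripe ‘1B’, and 70.6 in ripe ‘RB1’, against 21.7 in unripe ‘RB1’, and an unnamed isoform, TRINITY_DN1293_c0_g1_i98, carried most of the gene in every group.

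TRINITY_DN3108_c0_g1, a beta-glucosidase of the BoGH3B-like kind, had 11.6, 12.3 and 8.42 TMM-scaled TPM in ripe ‘1B’, against 0.405, 0.665 and 0.435 in unripe ‘1B’. In ‘RB1’ it had 11.7 and 11.6 in ripe fruits, against 2.5, 2.72 and 2.47 in unripe fruits. The summed gene was thus nearly level between the varieties in ripe fruit on this scale. From counts its ripe log2 fold change, ‘1B’ over ‘RB1’, was −0.63 (adjusted p = 0.0017, edgeR), under the fold threshold of 1.5. For cpBGH3B, its beta-glucosidase gene of this kind, the study's qPCR found significantly higher expression in ripe ‘RB1’. The isoforms were not level. TRINITY_DN3108_c0_g1_i11, which has no listed name, had 9.57, 10.2 and 7.47 in ripe ‘1B’ and 0.559 and 0 in ripe ‘RB1’. The listed isoform TRINITY_DN3108_c0_g1_i2 was at 0 in all 3 ripe ‘1B’ fruits and had 9.66 and 8.84 in ripe ‘RB1’. Each variety's leading isoform held 84.5% of the gene in ripe ‘1B’ and 79.2% in ripe ‘RB1’. Because both varieties were quantified on a shared assembly, alleles of a variety and splice forms cannot be told apart here. TRINITY_DN221_c1_g2 carries listed names for different proteins on different isoforms, a putative glucose-6-phosphate 1-epimerase, which interconverts forms of that sugar, and a pentatricopeptide repeat protein, a class of organelle RNA-binding proteins. The summed gene had 38.5, 37.6 and 37.4 in ripe ‘1B’, against 4.15, 3.24 and 4.5 in unripe ‘1B’, and 16.9 and 17.2 in ripe ‘RB1’, against 5.62, 6.65 and 7.13 in unripe ‘RB1’. The epimerase isoform TRINITY_DN221_c1_g2_i13 had 23.3, 23.8 and 24.3 in ripe ‘1B’, against 2.6, 2.26 and 2.08 in unripe ‘1B’. In ‘RB1’ the same isoform had 4.33 and 3.04 in ripe fruits, against 4.75, 4.32 and 4.13 in unripe fruits, so its levels overlapped there and the sum in ‘RB1’ passed the limit through other isoforms.

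The pathway list holds only transcripts that the study had called different between the ripe varieties in this same series. It is therefore not a full account of its pathways. The choice did not take 73 of its genes. In edgeR's quasi-likelihood test (called at an adjusted p below 0.05 with a log2 fold change beyond 1.5 either way), 12 of them were higher and 15 lower in ripe than in unripe ‘1B’, where 15.7% of all 28998 genes tested were higher and 10.2% lower. In ‘RB1’, 72 could be tested, of which 9 were higher and 13 lower in ripe fruit, where 10.2% of all 26265 genes tested were higher and 9.05% lower. The choice had taken 4 listed genes away by these same ripening values, so the counts describe only the genes left. Of the genes left, TRINITY_DN4138_c2_g1, a trehalose-phosphate synthase, which makes the signalling sugar trehalose 6-phosphate, was higher in both, by a log2 fold change of 4.38 (SE 0.19, adjusted p = 3.81e-11, edgeR) in ‘1B’ and 2.26 (SE 0.37, adjusted p = 1.46e-05, edgeR) in ‘RB1’. It did not pass the change limit with 1 added, at a mean of 3.10 TMM-scaled TPM in ripe ‘1B’, against 0.083 in unripe ‘1B’, and 0.45 in ripe ‘RB1’, against 0.094 in unripe ‘RB1’. In both varieties 3 genes were lower in ripe fruit: TRINITY_DN4654_c1_g1, a mannan endo-1,4-beta-mannosidase, a cell wall hydrolase (log2 fold changes −2.46 in ‘1B’ and −2.66 in ‘RB1’), TRINITY_DN1817_c0_g1, a peroxisomal 3-ketoacyl-CoA thiolase of fatty acid breakdown (−2.07 and −1.96), and TRINITY_DN2110_c2_g1, an aldehyde dehydrogenase named after its values were seen (−3.85 and −1.90). With ripe ‘RB1’ replicate 3 included, edgeR called 0 of the 72 higher and 2 lower in ripe ‘RB1’, with 17 higher at an unadjusted p below 0.05. Past the change limit but below the first 200 lay TRINITY_DN2555_c0_g1 at rank 222, a trehalose-phosphate phosphatase, which removes the phosphate of trehalose 6-phosphate, and TRINITY_DN1177_c0_g1 at rank 249, a UTP–glucose-1-phosphate uridylyltransferase, which makes UDP-glucose. In edgeR the log2 fold changes of TRINITY_DN2555_c0_g1 were 4.78 in ‘1B’, called higher, and 1.42 in ‘RB1’, not called. Those of TRINITY_DN1177_c0_g1 were 0.43 in ‘1B’ and 1.30 in ‘RB1’, neither called.

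The choice did not rank genes by the difference between the varieties, but it used the levels of these same fruits at both stages, so the variety tests are not independent of it and the shares set beside all genes are a description. In edgeR, on 3 ripe ‘1B’ and 2 ripe ‘RB1’ fruits, 63 of the 200 genes were lower in ‘1B’ (31.5%) and 11 were higher (5.5%), whereas of all 34437 genes tested 11.6% were lower and 17.9% higher. All 200 passed the filter on low counts, as was fixed by their choice for high ripe levels. The median log2 fold change, ‘1B’ over ‘RB1’, was −0.94 over the 200 genes and 0.31 over all genes tested, and 153 of the 200 were negative. On the deposited TMM-scaled TPM the medians were −0.30 for the 200 and 0.28 for all 22126 genes with at least 1 in some library, with 122 of the 200 lower in ‘1B’. Counts of calls moved with the scale. With the log2 fold changes shifted so that their median over all genes was 0, 81 were lower and 7 higher. In limma on log2 of TMM-scaled TPM plus 1, 30 were lower and 15 higher, and with ripe ‘RB1’ replicate 3 included in edgeR 16 were lower and 9 higher. Shares over all genes are not given for these other settings, so their counts cannot be set beside 11.6% and 17.9%. Ripe levels did not overlap between the varieties in 172 of the 200 genes, beside 76.9% of all genes.

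Of the genes higher in ripe ‘1B’, those with the largest fold changes were TRINITY_DN6927_c1_g1 (log2 fold change 6.11, SE 0.27, adjusted p = 7.18e-20, edgeR), TRINITY_DN326_c0_g1, TRINITY_DN5999_c3_g1 and TRINITY_DN8040_c0_g1. TRINITY_DN326_c0_g1 had 106, 113 and 63.1 TMM-scaled TPM in ripe ‘1B’ and 2.9 and 3.1 in ripe ‘RB1’, a log2 fold change of 4.35 in edgeR. Its unripe levels were 0.434, 0.67 and 0.505 in ‘1B’ and 0.388, 0.356 and 0.587 in ‘RB1’, which overlapped. TRINITY_DN5999_c3_g1 differed by 3.67 on the log2 scale in ripe fruit. TRINITY_DN8040_c0_g1 had 64.5, 63.1 and 54.6 in ripe ‘1B’ and 7.69 and 6.98 in ripe ‘RB1’, a log2 fold change of 2.46, and unlike the other 3 it was also called higher in unripe ‘1B’. The genes lower in ripe ‘1B’ were led by TRINITY_DN7096_c0_g1, which had 3.29, 3.3 and 2.06 in ripe ‘1B’ and 43.3 and 53.6 in ripe ‘RB1’ (log2 fold change −4.68, SE 0.18, adjusted p = 1.66e-21, edgeR). TRINITY_DN5590_c0_g2 had 4.82, 4.74 and 2.79 in ripe ‘1B’ and 53.8 and 54.2 in ripe ‘RB1’, a log2 fold change of −4.29. TRINITY_DN830_c1_g5 had 1.83, 1.5 and 1.41 in ripe ‘1B’ and 20.7 and 17.3 in ripe ‘RB1’, a log2 fold change of −4.19. In both of these genes the set-aside ‘RB1’ fruit was near 0 (0.071 in TRINITY_DN5590_c0_g2 and 0.054 in TRINITY_DN830_c1_g5), and with it included the calls were lost (adjusted p = 0.106 and 0.089, edgeR). TRINITY_DN1754_c1_g2 had 5.79, 4.63 and 3.81 in ripe ‘1B’ and 57.0 and 50.2 in ripe ‘RB1’, a log2 fold change of −4.11. Of the genes with a listed name, only the acetyl-CoA acetyltransferase TRINITY_DN1293_c0_g1 passed both thresholds in ripe fruit (log2 fold change −3.08, SE 0.18, adjusted p = 1.12e-16, edgeR). The log2 fold changes of the other 3 in ripe fruit were 0.70 for the farnesyl pyrophosphate synthase gene, −0.63 for the beta-glucosidase gene and 0.75 for TRINITY_DN221_c1_g2, all under the fold threshold. The listed genes carry an isoform that the study had called different between the ripe varieties, so these results are not independent of the list.

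RNA quality was scored higher in unripe ‘1B’ than in unripe ‘RB1’, so it cannot be told apart from variety in the unripe tests. In unripe fruit 179 of the 200 genes had enough counts to be tested, and the other 21 were below the filter on low counts. Of these 179, 25 were higher (14.0%) and 30 lower (16.8%) in ‘1B’, while of all 23956 genes tested 7.85% were higher and 7.28% lower. The median log2 fold change of the tested members was −0.09, beside −0.07 over all genes. On the deposited TMM-scaled TPM 72 of the 200 were higher and 127 lower in unripe ‘1B’, beside 63.2% of all genes lower. Unripe levels did not overlap between the varieties in 151 of the 200, beside 58.7% of all genes. Crossing the stages, 19 of the 179 genes were lower in ‘1B’ at both stages (10.6%) and 8 were higher at both (4.47%), beside 1.77% and 1.92% of the 23330 genes tested at both. The levels of the varieties were apart at both stages in 138 of the 200, beside 47.6% of all genes (10524 of 22126). In 31 of the 200 ‘1B’ was on opposite sides of ‘RB1’ at the stages, a smaller share than the 25.9% of all genes (5723 of 22126). The choice asked for a rise in both varieties, which works against this pattern, so these shares are only a description. Of the 63 genes lower in ripe ‘1B’, 33 had been tested and not called in unripe fruit, 9 could not be tested there and 2 were higher there, TRINITY_DN4800_c0_g1 and TRINITY_DN5590_c0_g1, both named after their values were seen. Of all genes tested at both stages, 1.32% were lower in ripe and higher in unripe ‘1B’. With ripe ‘RB1’ replicate 3 included in edgeR, and in limma with 1 added, neither gene was called in ripe fruit, and the ripe log2 fold change of TRINITY_DN4800_c0_g1 (−1.66 in edgeR) was under the fold threshold without ripe ‘1B’ replicate 3 (−1.40) or ripe ‘RB1’ replicate 1 (−1.33). These crossings set calls side by side, and the difference between the stages was not tested. In limma on log2 of TMM-scaled TPM plus 1, which tested 122 of the 200 in unripe fruit, 4 were higher and 18 lower, and with 0.1 added 9 were higher and 27 lower. The limma counts are given without shares over all genes and cannot be set beside 7.85% and 7.28%.

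The largest unripe differences were of genes that were nearly silent in one variety. TRINITY_DN111_c0_g2 had 0.461, 0.16 and 0.325 TMM-scaled TPM in unripe ‘1B’ and 436, 418 and 432 in unripe ‘RB1’, a log2 fold change of −10.09 (SE 0.17, adjusted p = 1.81e-20, edgeR). In ripe fruit the same gene was lower in ‘1B’ by a log2 fold change of −2.60. TRINITY_DN961_c2_g1 was counted 2 times over the 3 unripe ‘1B’ libraries and had 2.1, 2.22 and 3.06 in unripe ‘RB1’, where its CPM was 379-fold higher (95% exact Poisson interval 105 to 3129, for counting error in ‘1B’ only). TRINITY_DN3111_c0_g1 had no count in unripe ‘1B’ and 0.728, 0.452 and 0.55 in unripe ‘RB1’, at least 37.6-fold higher in ‘RB1’ when set against 3 counts over the ‘1B’ group. In ripe fruit it reached 12.04, 10.8 and 10.1 in ‘1B’ and 7.81 and 7.55 in ‘RB1’, so every ripe ‘1B’ fruit was above on this scale, while the log2 fold change from counts in edgeR was −0.07 (adjusted p = 0.743). The direction turned between the scales and the ripe varieties are not called different in this gene. On the other side, TRINITY_DN5721_c0_g1 had 23.1, 18.9 and 17.8 in unripe ‘1B’ and 0.97, 0.762 and 1.05 in unripe ‘RB1’, a log2 fold change of 4.77 (SE 0.13, adjusted p = 3.61e-17, edgeR). Its ripe levels were 67.6, 67.9 and 57.3 in ‘1B’ and 89.5 and 78.3 in ‘RB1’, so the order of the varieties was the reverse in ripe fruit. TRINITY_DN3600_c1_g1 had 0.812, 0.552 and 0.562 in unripe ‘1B’ and 0.023, 0.04 and 0.056 in unripe ‘RB1’, a log2 fold change of 4.14 at low levels. TRINITY_DN15212_c0_g1 had 0.585, 0.378 and 0.326 in unripe ‘1B’ and 0.037, 0.022 and 0.101 in unripe ‘RB1’, a log2 fold change of 3.33, and was also called higher in ripe ‘1B’. Among the genes with a listed name, the acetyl-CoA acetyltransferase (log2 fold change −3.80) and the beta-glucosidase (−1.96) were lower in unripe ‘1B’ in edgeR, the beta-glucosidase no longer in limma with 1 added (−1.25). The farnesyl pyrophosphate synthase had 1.35 and TRINITY_DN221_c1_g2 −0.54, under the fold threshold.

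**Figure D4:**
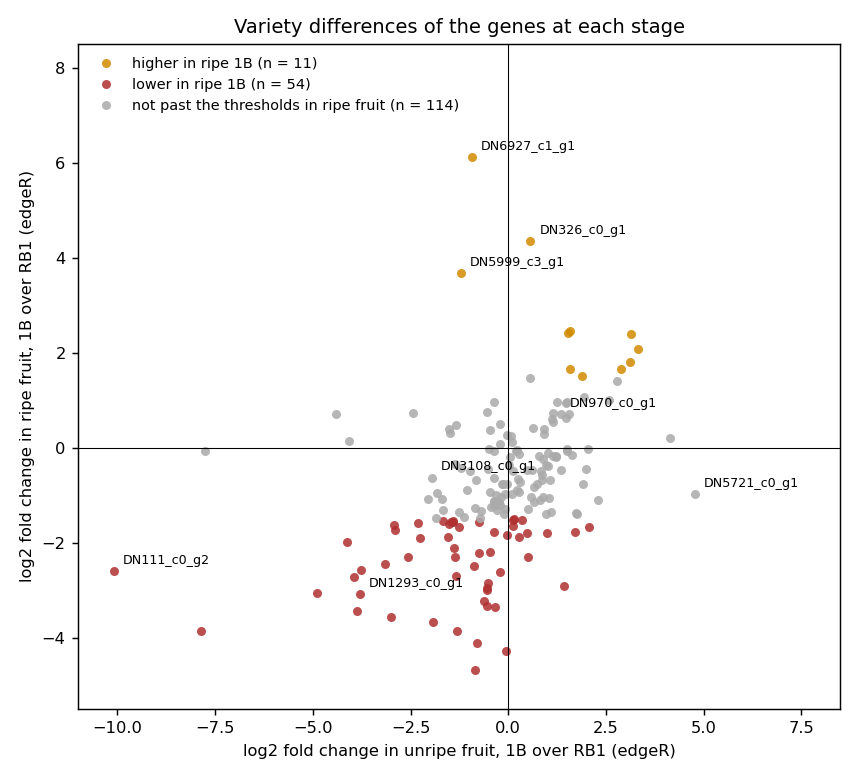
Log2 fold change of ‘1B’ over ‘RB1’ from edgeR in unripe fruit (horizontal axis) and in ripe fruit (vertical axis) for the 179 genes tested at both stages, coloured by the call in ripe fruit. The 54 genes plotted as lower in ripe ‘1B’ lie on both sides of the unripe zero line, and TRINITY_DN6927_c1_g1 lies at 6.11 in ripe and −0.94 in unripe fruit.

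The set-aside fruit, ripe ‘RB1’ replicate 3, is a library that the choice of genes did not use. The unripe ‘RB1’ fruits it is set against were used, and low levels there helped a gene to be chosen, so a change above 0 is in part built in and the values are a description. Measured against the mean of unripe ‘RB1’, its log2 change had a median of 0.12 over the 200 genes (quartiles −0.09 and 0.43), against 1.85 for replicates 1 and 2, which were used. The median over all 22126 genes with at least 1 TMM-scaled TPM in some library was −0.03. A change above 1 was seen in 16 of the 200 genes, beside 0.999% of all genes, and 103 of the 200 lay above every unripe ‘RB1’ fruit, beside 29.8% of all genes. In the other direction, 6 of the 200 had a change below −1, beside 1.91% of all genes. Below every unripe ‘RB1’ fruit lay 53 of the 200, beside 7402 of the 22126 genes. In 20 genes this fruit had over 50% of the change of replicates 1 and 2, and in 7 it reached the lower of those replicates. These 7, chosen after their values were seen, were TRINITY_DN970_c0_g1, TRINITY_DN815_c0_g1, TRINITY_DN5655_c0_g1, TRINITY_DN41208_c0_g1, TRINITY_DN2230_c0_g1, TRINITY_DN2859_c0_g1 and TRINITY_DN9310_c0_g2. The farnesyl pyrophosphate synthase TRINITY_DN970_c0_g1 had 6.25 TMM-scaled TPM in this fruit, beside 6.01 and 6.07 in the other ripe ‘RB1’ fruits. The acetyl-CoA acetyltransferase TRINITY_DN1293_c0_g1, the other isoprenoid gene, had 60.1 in this fruit, under each of the unripe ‘RB1’ fruits (115, 100.5 and 106). The beta-glucosidase TRINITY_DN3108_c0_g1 had 3.22, above each of the unripe fruits (2.5, 2.72 and 2.47) and far under the ripe ones.

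The largest changes in this fruit were those of TRINITY_DN5655_c0_g1, TRINITY_DN41208_c0_g1 and TRINITY_DN815_c0_g1. TRINITY_DN5655_c0_g1 had 11.95 in it, against 0.371, 0.424 and 0.637 in unripe ‘RB1’, and 3.38 and 4.25 in the other ripe fruits, which it exceeded. The smallest were those of TRINITY_DN2179_c1_g1, TRINITY_DN12513_c0_g2 and TRINITY_DN7443_c0_g1. TRINITY_DN7443_c0_g1 had 9.89 in it, against 23.7, 23.7 and 28.3 in unripe ‘RB1’, and 280.4 and 267 in the other ripe fruits. By the study's label this fruit is ripe, and its stage could not be checked from the files used here. With the 200 genes split into 4 groups of 50 by their unripe ‘RB1’ level, the median change in this fruit was 0.09, 0.05, 0.15 and 0.18 in ascending order of level.

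**Figure D5:**
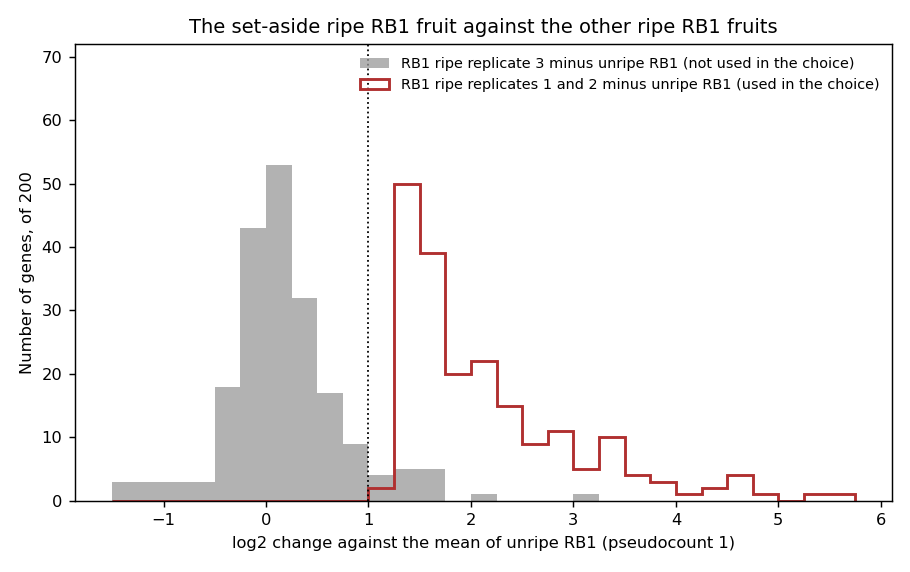
Number of genes (vertical axis) by log2 change against the mean of unripe ‘RB1’ (horizontal axis), for the set-aside ripe ‘RB1’ replicate 3 in grey and for ripe ‘RB1’ replicates 1 and 2, whose values chose the genes, as a red outline. The grey bars centre on a median of 0.12 and the outline on 1.85, with 16 grey genes beyond the dotted line at 1.

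Ripe ‘1B’ fruits differed among themselves as well. Replicate 3 was the lowest of the 3 ripe ‘1B’ fruits in 151 of the 200 genes (75.5%), beside 41.4% of all 15312 genes with a ripe ‘1B’ mean of at least 1. Its level was a median of 0.82 of the mean of replicates 1 and 2, beside 0.99 over all genes. The 2 most abundant genes went the other way: TRINITY_DN6927_c1_g1 had 4572.5 in replicate 3, beside 3518 and 3296, and TRINITY_DN5999_c3_g1 had 2409.9, beside 1780.1 and 1813. TRINITY_DN7443_c0_g1 had 52.0, 50.2 and 18.9 in the ripe ‘1B’ fruits and 12, 13.4 and 16.4 in the unripe ones, so replicate 3 stood close to the unripe range in this gene. By CPM, a scale added after the values were seen, replicate 3 was lowest in 162 of the 200, beside 50.0% of all genes. In the ripe ‘RB1’ fruits used, replicate 1 was the lower in 88 genes and replicate 2 in 112. The coefficient of variation among fruits had medians of 14.3% in ripe ‘1B’ and 13.3% in unripe ‘1B’, and of 6.44% in ripe ‘RB1’, from 2 fruits, and 13.2% in unripe ‘RB1’.

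Of the 200 genes, 49 had a single assembled isoform and 151 had more. In 32 of those 151 genes (21.2%) the leading isoform in ripe ‘1B’ was not the leading isoform in ripe ‘RB1’, beside 23.1% of 9451 genes with more than 1 isoform, a share near the background. In 3 of the 151 genes (1.99%) each variety's leading isoform held over 50% of the gene there and under 5% in the other variety, a count given without its share over all genes. They were the beta-glucosidase TRINITY_DN3108_c0_g1, TRINITY_DN5999_c3_g1 and TRINITY_DN2873_c0_g1, of which TRINITY_DN2873_c0_g1 was named after its values were seen. In TRINITY_DN5999_c3_g1 the isoform TRINITY_DN5999_c3_g1_i5 held 99.5% of the gene in ripe ‘1B’ and 0.68% in ripe ‘RB1’, where TRINITY_DN5999_c3_g1_i3 held 83.5%. In TRINITY_DN2873_c0_g1 a different isoform held the whole gene in ripe fruit of each variety. The identifiers of the 200 genes had separate DN numbers except for 8 genes, which shared 4 numbers. Among these 8, TRINITY_DN5999_c3_g1 and TRINITY_DN5999_c3_g2 shared a read cluster of the assembly, as did TRINITY_DN5590_c0_g1 and TRINITY_DN5590_c0_g2. The counts of such pairs could be split between close sequences.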

How the data were processed

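RNA-Seq libraries of flesh from 12 papaya fruits were used, 3 for each variety and stage. The expected counts and the TMM-scaled TPM signal come from the authors: after read trimming (bbduk, Trimmomatic 0.40, FastQC 0.11.9) they assembled both varieties together with Trinity, without a genome, and quantified transcripts with Salmon. The deposited signal values are TPM multiplied by TMM factors across the 12 libraries, so that libraries sum to unequal totals, and the deposited expected counts are not normalized.

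Isoform values were added up per Trinity gene, and the added counts were rounded to whole numbers. Comparisons used edgeR 4.0.16 under R 4.3.3 with filterByExpr, TMM and the quasi-likelihood test, with Benjamini-Hochberg adjustment over all genes tested. The standard error is the log2 fold change over the root of F. Calls needed an adjusted p below 0.05 with a log2 fold change beyond 1.5 either way, and ripe ‘RB1’ replicate 3 was left out, as in the study. The steps were tested on simulated data. Alternatives were DESeq2 1.42.0, limma 3.58.1 on log2 TMM-scaled TPM plus 1 or 0.1, RLE factors, no filter, a shift to a median of 0, a replicate block, each fruit left out, ripe ‘RB1’ replicate 3 kept and, for membership, other scales. Rescaling every library to the same sum, and both other scales for ripe ‘1B’ replicate 3, were added after the data were seen.

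Named are ranks 1 to 10, the 5 genes with the highest ripe levels, genes with a listed name, the largest variety differences without overlap (4 a direction in ripe, 3 in unripe fruit), the 3 largest and smallest changes in ripe ‘RB1’ replicate 3, the 3 genes on either side of the limit, and up to 2 pathway genes a direction. Other genes are marked as named after their values were seen. Members, lists and rules were chosen with earlier results of these data known. Gene names come from the study's list of pathway transcripts. The depth of 10949263 to 60100478 counts makes 3 counts worth 0.274 to 0.050 CPM (counts relative to the library total). No sequence is given, as no transcript sequence was used here.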

Additional observations from a re-analysis of the deposited data

Results flagged for a closer look

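In 9 of the named genes ‘1B’ lay on opposite sides of ‘RB1’ at the stages, without overlap between the fruits used. This was seen in 31 of the 200 genes, a smaller share than the 25.9% of all genes (5723 of 22126). The choice asked for a rise in both varieties, which works against this pattern, so the smaller share is only a description. As background to the 25.9%, 36.7% of all genes were lower in ripe ‘1B’ on the deposited TMM-scaled TPM and 63.2% were lower in unripe ‘1B’. The difference between the stages was not tested. The values are log2 of the mean TMM-scaled TPM plus 1, ‘1B’ minus ‘RB1’. TRINITY_DN6927_c1_g1 had 6.68 in ripe and −1.10 in unripe fruit, and TRINITY_DN5999_c3_g1 had 4.19 in ripe and −1.27 in unripe fruit. TRINITY_DN13695_c0_g1 had 1.15 in ripe and −0.76 in unripe fruit, and TRINITY_DN171_c1_g1 had 0.79 in ripe and −0.43 in unripe fruit. TRINITY_DN221_c1_g2, which carries names of 2 proteins, had 1.11 in ripe and −0.59 in unripe fruit, and TRINITY_DN3111_c0_g1 had 0.47 in ripe and −0.66 in unripe fruit. The ripe difference of TRINITY_DN3111_c0_g1 was −0.07 from counts in edgeR, and that of TRINITY_DN171_c1_g1 was 0.30, neither passing the test. TRINITY_DN5721_c0_g1 ran the other way, with −0.38 in ripe and 3.44 in unripe fruit, as did TRINITY_DN4800_c0_g1, with −0.98 in ripe and 0.85 in unripe fruit, and TRINITY_DN5590_c0_g1, with −1.22 in ripe and 1.33 in unripe fruit. In edgeR the ripe differences of TRINITY_DN13695_c0_g1 (0.71), TRINITY_DN221_c1_g2 (0.75) and TRINITY_DN5721_c0_g1 (−0.97) were under the fold threshold. So were the unripe differences of TRINITY_DN6927_c1_g1 (−0.94), TRINITY_DN5999_c3_g1 (−1.21), TRINITY_DN171_c1_g1 (−1.49) and TRINITY_DN221_c1_g2 (−0.54). Of these genes, only TRINITY_DN4800_c0_g1 and TRINITY_DN5590_c0_g1 were called at both stages.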

How the results depend on the processing

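Of the 200 genes, 94 stayed in the first 200 with 0.1 added (2995 genes passed the limit) and 129 with CPM, and 1075 genes passed after rescaling every library to the same sum. Leaving out each fruit kept 186 to 197 members, with 349 to 402 genes past the limit. In ripe fruit the calls lower in ‘1B’ were 30 (limma, 1 added), 36 (limma, 0.1 added) and 16 (ripe ‘RB1’ replicate 3 kept), and those higher 18 (limma, 0.1 added) and 7 (shifted to a median of 0). Leaving out each fruit gave 8 to 13 higher and 50 to 70 lower. In unripe fruit limma called 4 higher and 18 lower with 1 added and 9 higher with 0.1 added, and leaving out each fruit gave 25 to 29 higher and 27 to 33 lower. Of the other pathway genes, limma called 19 higher and 7 lower in ripe ‘1B’ with 0.1 added and 4 lower with 1 added, and 5 higher in ripe ‘RB1’ with 1 added. Keeping ripe ‘RB1’ replicate 3, edgeR called 0 higher (17 at an unadjusted p below 0.05) and 2 lower there. Leaving out each fruit gave 10 to 12 higher and 15 to 16 lower in ‘1B’, and 7 to 11 higher and 11 to 14 lower in ‘RB1’. No shares over all genes are given for these settings, so the counts show only how far the calls moved. The cause of these shifts was not tested.

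The median change in ripe ‘RB1’ replicate 3 was 0.21 with 33 genes above 1 (0.1 added), 0.31 with 36 above 1 (CPM) and 0.095 with 7 above 1 (the 112 members with a ripe ‘RB1’ mean of at least 10). It was 0.087 to 0.131 with 16 to 17 above 1 without each unripe ‘RB1’ fruit. Same-numbered fruits did not deviate together (correlations −0.023 to 0.016), so the numbers were not taken as pairs. A replicate block gave 12 higher and 55 lower in ripe fruit and 24 higher and 30 lower in unripe fruit, also without shares over all genes. Of the variety differences of named genes that were recomputed, 2 turned direction, both in ripe fruit and neither called. TRINITY_DN171_c1_g1 had −0.012 when shifted to a median of 0. TRINITY_DN3111_c0_g1, at −0.07 in edgeR, had 0.507 (limma, 0.1 added), 0.462 (limma, 1 added), 0.017 (no filter), 0.013 (replicate block) and 0.504 (ripe ‘RB1’ replicate 3 kept), and −0.244 to 0.173 without each fruit. Ripe ‘RB1’ had 2 fruits, one of them at 10949263 counts, and differences under the fold threshold were not called.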
